A study of Mus musculus with 18 samples.

Results

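Skeletal muscle cells made up 736 of the 16877 barcodes kept from single-cell RNA sequencing of mouse dorsal skin, or 4.36%. They were chosen by measured values. A barcode was kept if it had at least 850 and at most 7800 detected genes and if under 13% of its UMIs were mitochondrial (unique molecular identifiers, 1 per captured transcript). It counted as a muscle cell with at least 10 UMIs each of Acta1, the skeletal alpha-actin, Ckm, the muscle creatine kinase, and Tnnt3, the fast troponin T, and no UMI of the leukocyte gene Ptprc. The levels of these 3 genes are therefore no finding. The comparison cells were 12241 fibroblasts of the same libraries, chosen by at least 20 UMIs of Col1a1, Col1a2 and Col3a1 together and at least 1 of Pdgfra. All 18 libraries came from male wild-type C57BL/6J mice kept under 12 h of light and 12 h of dark, with no treatment, and 3 mice were taken at each of ZT2, ZT6, ZT10, ZT14, ZT18 and ZT22 (zeitgeber time, hours after lights on). The replicate number marks one of 3 successive 24 h collection cycles. After fat had been scraped off, the skin was digested with collagenase, strained and sorted for live cells, and each mouse gave 1 droplet library made from the 3' ends of transcripts. The tissue is labelled dorsal dermis, and no label names a muscle layer.

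A thin sheet of striated muscle, the panniculus carnosus, lies beneath the dermis of rodents and moves the skin. Its fibres are long, multinucleate cells in which actin and myosin filaments slide past each other when calcium is released from the sarcoplasmic reticulum. Fibres differ in the myosin heavy chain they use: Myh7 marks slow type I fibres, and Myh2, Myh1 and Myh4 mark the fast types IIA, IIX and IIB, in order of rising speed and falling endurance. Skeletal muscle also holds a circadian clock, in which Arntl and Clock drive Per, Cry, Nr1d1 and Dbp, and the products of Per, Cry and Nr1d1 feed back on the drivers.

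The 3 markers that the choice of cells did not use were abundant. Mylpf, the fast regulatory light chain, was at 320 UMIs per 10000 pooled over the muscle cells and at 0.0537 in fibroblasts. Tnnc2, the fast troponin C, was at 260.5 against 0.0317, and Myh4 at 16.2 against 0.00296. The 4 cardiac markers Myh6, Nppa, Tnni3 and Myl7 had no UMI in any muscle cell, nor had the smooth muscle and pericyte genes Myh11, Tagln and Rgs5. Acta2, the smooth muscle actin and the fourth gene of that list, had 40 UMIs, at 0.0595 UMIs per 10000 against 0.00347 in fibroblasts. Apart from Acta2, these values go with the label of skeletal muscle. Of the other cell types, keratinocyte Krt14, Krt5 and Krt15 and endothelial Cdh5, Kdr and Emcn were also at 0, while keratinocyte Krt10 had 98 UMIs. The 6 endothelial markers summed to 0.0253 UMIs per 10000, and the 7 immune markers summed to 0.104 UMIs per 10000 and the 4 adipocyte markers to 0.00149. Ptprc is among the 7 and was held at 0 by the rule, so the immune sum is partly set by the choice of cells. In these and all later comparisons of level, 1 UMI is 1 transcript whatever its length, and values are UMIs per 10000 UMIs of the same cells.

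Markers of fibroblasts were present, but in few cells. The 3 collagen genes summed to 29.3 UMIs per 10000 over all muscle cells and to 653 in fibroblasts, and the median muscle cell had 0. Of the collagen UMIs, 95.3% lay in 14 cells that also met the fibroblast rule. Without these 14 cells the collagen level was 1.46 per 10000. Collagen UMIs chose both the fibroblasts and these 14 cells, so these levels are set in part by the rules and are no finding. These 14 cells were kept unless stated, and held 5.16% of the UMIs of the muscle cells. Haemoglobin was uneven too. Hbb-bs, the most abundant red cell gene, was at 11.0 UMIs per 10000 in the muscle cells and 3.88 in fibroblasts, and 5 muscle cells held 75.5% of the 14495 haemoglobin UMIs.

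The muscle cells were unevenly spread over the mice. ZT2 libraries held 27, 17 and 1, ZT6 libraries 13, 44 and 52, and ZT10 libraries 18, 60 and 61. At ZT14 there were 75, 101 and 14, at ZT18 31, 29 and 96, and at ZT22 15, 34 and 48. As a share of kept barcodes, the lowest library was ZT2 replicate 3 with 0.0501% (exact 95% interval 0.00127% to 0.279%), the median was 4.97% and the highest was ZT18 replicate 1 with 17.5% (12.2% to 23.9%). Replicates of 1 time thus differed as much as times did, for example 0.741% and 12.0% at ZT14. A 24 h cosine explained 15.4% of the variance of the share over the 18 libraries (p = 0.285, two-sided permutation test with 100000 draws). The strainers, the live sort and the scraping of fat all stand between the tissue and this share, and their part in it was not tested.

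The 10 UMI threshold fell in a sparse range. Only 2 muscle cells had exactly 10 UMIs of their scarcest rule gene and 12 had 10 to 19, while 7 other kept barcodes had 5 to 9 and none had 9. The median muscle cell had 530 UMIs of Acta1, 151.5 of Ckm and 164.5 of Tnnt3. The floor of 850 genes weighed more. A further 829 barcodes met the rule on Acta1, Ckm, Tnnt3 and Ptprc but were not kept, 826 of them with under 850 genes and 16 with 13% or more mitochondrial UMIs. Within 50 genes of the floor stood 49 muscle cells just inside it and 61 barcodes just outside it. The muscle cells kept had a median of 6652.5 UMIs and 1396 genes, against 22177 UMIs and 4518 genes in fibroblasts.

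Barcodes that occur in more than 1 library were counted before any comparison. ZT6 replicate 2 and ZT10 replicate 3 shared 89 barcodes, where no other pair of libraries shared more than 4. In ZT10 replicate 3 all 89 were kept, and in ZT6 replicate 2 none was. One of them was a muscle cell, in ZT10 replicate 3, and none of the 44 muscle cells of ZT6 replicate 2 was among them. Their UMIs per barcode ran from 501 to 1100 in ZT6 replicate 2 and from 19511 to 62031 in ZT10 replicate 3. Without these barcodes, added after seeing the data, the number of genes called rhythmic in muscle cells stayed at 5.

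The muscle cells held almost no mitochondrially encoded RNA and almost no Malat1. The median share of mitochondrial UMIs was 0.0116% in muscle cells and 2.21% in fibroblasts, and 305 of the 736 muscle cells had none, against 2 of the 12241 fibroblasts. All 8 mitochondrial genes of the fixed list were lower in muscle cells in each of the 17 libraries with at least 10 of them. Of the 2797 genes abundant enough to be tested in muscle cells, 20.8% were lower and 39.2% higher than in fibroblasts in all 17 libraries. These shares are given as a reference for such counts here. The 2797 genes had to be abundant in muscle cells, a filter that favours genes higher there. The fixed lists had no such filter, so their counts cannot be read strictly against these shares. The most abundant of the 8 mitochondrial genes, mt-Co3, a catalytic subunit of cytochrome c oxidase, was at 6.19 UMIs per 10000 against 42.02. Because the choice of cells capped this share, its upper range is bounded, but not its lower one. Malat1, an RNA retained in the nucleus, was at 171 UMIs per 10000 in fibroblasts and at 4.63 in muscle cells, 597 of which had no UMI of it. The 14 cells that met the fibroblast rule carried 94.7% of these Malat1 UMIs and 34.9% of the mitochondrial ones. Neat1 and Meg3, other nuclear non-coding RNAs that were picked with Malat1 after seeing the data, showed the same order, at 0.244 against 5.33 and 0.617 against 12.0 UMIs per 10000. Why these RNAs were scarce was not tested.

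**Figure D1:**
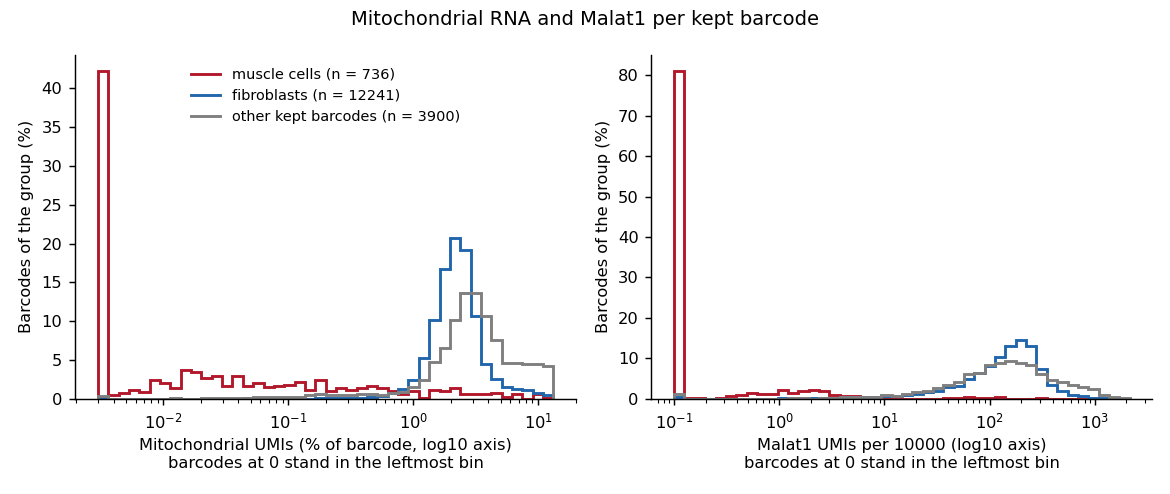
Share of barcodes (y axis, % of each group) by mitochondrial UMIs (left, % of the barcode's UMIs) and by Malat1 UMIs per 10000 (right), both on log10 axes, for 736 muscle cells, 12241 fibroblasts and 3900 other kept barcodes. Barcodes at 0 stand in the leftmost bin, which holds 305 muscle cells on the left and 597 on the right, while fibroblasts peak near their medians of 2.21% and 155 UMIs per 10000.

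Other classes of RNA were measured in the same cells. Cytosolic ribosomal protein genes took a median of 10.7% of the UMIs of a muscle cell and 13.8% of those of a fibroblast. Of 11 immediate early and heat shock genes, which rise when tissue is dissociated, 10 were lower in muscle cells in all 17 libraries. Fos was at 1.89 UMIs per 10000 against 20.9 in fibroblasts, and Hspa1a at 0.385 against 10.6. The exception was Hspb1, a small heat shock protein abundant in muscle, at 10.4 against 3.46 and higher in muscle cells in all 17 libraries.

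A few genes took a large part of the RNA. The 20 genes with the most UMIs made up 38.7% of all UMIs of the muscle cells and 3.92% of those of fibroblasts, and Acta1 alone made up 8.45%. With Ckm and Tnnt3, which were also used to choose the cells, it made up 13.4%, which is no finding, and the other 17 genes made up 25.3% against 3.92% in fibroblasts. In order they were Acta1, Mylpf, Tnnc2, Aldoa, Ckm, Myl1, Tnnt3, Tpm1, Gapdh, Tpm2, Tnni2, Gm42418, Tpt1, Fth1, Slc25a4, Selenow, Atp2a1, Car3, Des and Eno3. Most are proteins of the filaments or enzymes that supply them with ATP. Gm42418, Tpt1 and Fth1 were abundant in fibroblasts too, at 253, 59.2 and 63.3 UMIs per 10000 against 146, 103 and 91.1 in muscle cells. Car3, the muscle carbonic anhydrase, was at 62.02 against 0.0099, and Atp2a1, the fast calcium pump of the sarcoplasmic reticulum, at 63.6 against 0.0105.

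Outside the fixed lists, the genes highest in muscle cells relative to fibroblasts included Ppp1r3a, Lmod3, Smtnl1, Dhrs7c, 2310002L09Rik, Fitm1, Gm11967, Csrp3 and Smpx. Each was higher in muscle cells in all 17 libraries. Smpx, a small muscle protein, was at 15.5 UMIs per 10000 and Fitm1, a lipid droplet protein, at 4.92. Ppp1r3a, which ties protein phosphatase 1 to glycogen, was at 2.05, with 1382 UMIs in the muscle cells and 3 in all fibroblasts. Among 258 listed genes, 164 were higher in muscle cells when pooled, and 93 by the median over cells. Of the 2797 genes that could be tested in muscle cells, 1798 were higher when pooled, a similar share, so the 164 is no finding about the lists. Over these 2797 genes the median log2 ratio of muscle cells to fibroblasts was 0.61. The filter on abundance in muscle cells pushes both values up, so that the unfiltered lists cannot be read against them.

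Nearly all myosin heavy chain RNA of these cells was Myh4 or Myh1. Because each cell had to hold at least 10 UMIs of the fast gene Tnnt3, fibres without it could not enter, so the scarcity of slow genes is partly set by the choice of cells. These genes stand side by side on chromosome 11 of GRCm38, with Myh2 at chr11:67171027-67197517, Myh1 at chr11:67200052-67224575 and Myh4 at chr11:67238029-67260446. Of the UMIs of Myh4, Myh1, Myh2 and Myh7 in the muscle cells, 66.7% were Myh4, 32.4% Myh1, 0.795% Myh2 and 0.104% Myh7. A UMI of Myh4 was found in 78.5% of muscle cells and one of Myh1 in 60.9%. In fibroblasts, which should lack both and had a median of 22177 UMIs against 6652.5, the shares were 0.596% and 0.327%. Myh2 was found in 22 muscle cells and led in 11, and the developmental myosins Myh3 and Myh8 had 1 and 12 UMIs in all.

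Single cells tended towards one myosin. Of the 643 muscle cells with at least 5 UMIs of the 4 genes, 299 had a Myh4 share of 90% or more and 140 had one under 10%. The remaining 204 lay between, and 39 of these between 40% and 60%. Both Myh4 and Myh1 were found in 304 muscle cells. Whether a barcode with both held 1 fibre or pieces of more was not tested.

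**Figure D2:**
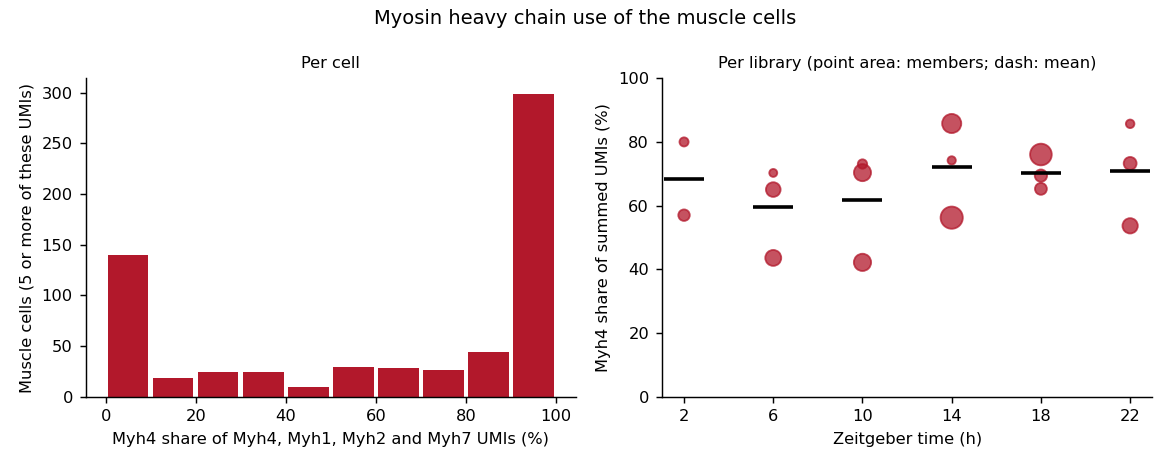
Left, number of muscle cells (y axis) by Myh4 share of the UMIs of Myh4, Myh1, Myh2 and Myh7 (x axis, %), for the 643 cells with at least 5 such UMIs, of which 299 stand in the top bin and 140 in the bottom bin. Right, the same share over the summed UMIs of each of 17 libraries (points, area in proportion to the number of muscle cells) and the mean per zeitgeber time (dashes), between 42.2% and 85.8% with overlapping times.

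Over libraries the Myh4 share ranged from 42.2% in ZT10 replicate 3 to 85.8% in ZT14 replicate 1, with a mean of 67.2% ± 12.9 (SD, n = 17). The values were 57.0% and 80.1% at ZT2, 70.3%, 65.1% and 43.6% at ZT6, and 73.1%, 70.4% and 42.2% at ZT10. They were 85.8%, 56.3% and 74.3% at ZT14, 69.5%, 65.3% and 76.1% at ZT18, and 85.7%, 73.3% and 53.7% at ZT22. The ranges of the 6 times overlap. A 24 h cosine explained 11.8% of the variance (p = 0.414, two-sided permutation test with 100000 draws).

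Of the UMIs of most slow fibre genes, the larger part lay in 1 cell. A single cell of ZT10 replicate 1 held all 17 UMIs of Myh7 and all 314 of Myl2, the slow regulatory light chain. It also held 256 of the 308 UMIs of slow troponin T (Tnnt1), 187 of the 197 of slow troponin C (Tnnc1) and 127 of the 129 of Myl3. For slow troponin I (Tnni1) it held 64 of 78 and for Tpm3, the slow tropomyosin, 157 of 204. It held only 25 of the 71 UMIs of Atp2a2, the calcium pump of slow and cardiac muscle, and 3 of the 8 of the calcium store protein Casq2, and Myh7b had none in any muscle cell. The cell had 0 UMIs of Myh4, 0 of Myh1 and 1 of Myh2 among 12792 UMIs. Tpm3 and Atp2a2 were also found in fibroblasts, at 1.30 and 1.34 UMIs per 10000.

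Muscle cells with Myh4 and with Myh1 differed in other genes. This split was chosen after seeing the data and is given without a test. It set the 299 cells with a Myh4 share of 90% or more against the 126 with such a share of Myh1, in the 11 libraries with at least 5 of each. The median cell had 7203 and 6692.5 UMIs respectively. Of 1712 genes with at least 200 UMIs, 33 were higher in the Myh1 cells in all 11 libraries, or 1.93%, and 17 in the Myh4 cells, or 0.993%. Each count includes the myosin that defined its cells, whose difference was fixed by the split and is no finding.

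The genes below are examples from the 33 higher in the Myh1 cells, and no gene group among the 33 was tested. Mb, myoglobin, which stores oxygen, was at 33.0 ± 12.7 UMIs per 10000 in the Myh1 cells and 11.3 ± 5.58 in the Myh4 cells (mean ± SD, n = 11 libraries). Csrp3, a Z-disc protein, was at 13.1 ± 4.92 against 1.71 ± 1.57. Myoz2, the calsarcin of oxidative fibres, was at 5.27 ± 2.36 against 0.261 ± 0.201, and Ankrd2, a stretch-responsive ankyrin protein, at 1.53 ± 0.875 against 0.0542 ± 0.0625. Atp5b, a subunit of ATP synthase, was at 12.7 ± 1.29 against 8.33 ± 1.59, and Sdhb, a subunit of succinate dehydrogenase, at 4.41 ± 1.23 against 2.76 ± 0.664.

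From the 17 genes higher in the Myh4 cells some examples follow, and no gene group among the 17 was tested. Pooled over cells, Actn3, the fast alpha-actinin, was at 28.8 UMIs per 10000 against 8.84, and Pvalb, the calcium buffer parvalbumin, at 41.0 against 21.1. Mybpc2, the fast myosin binding protein C, was at 8.59 against 3.66. Mstn, myostatin, which limits muscle growth, was at 3.56 against 0.737. Myhas, an antisense transcript of the fast myosin cluster, was at 1.31 against 0.162. Aldoa, aldolase A of glycolysis, was at 266 against 223.

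**Figure D3:**
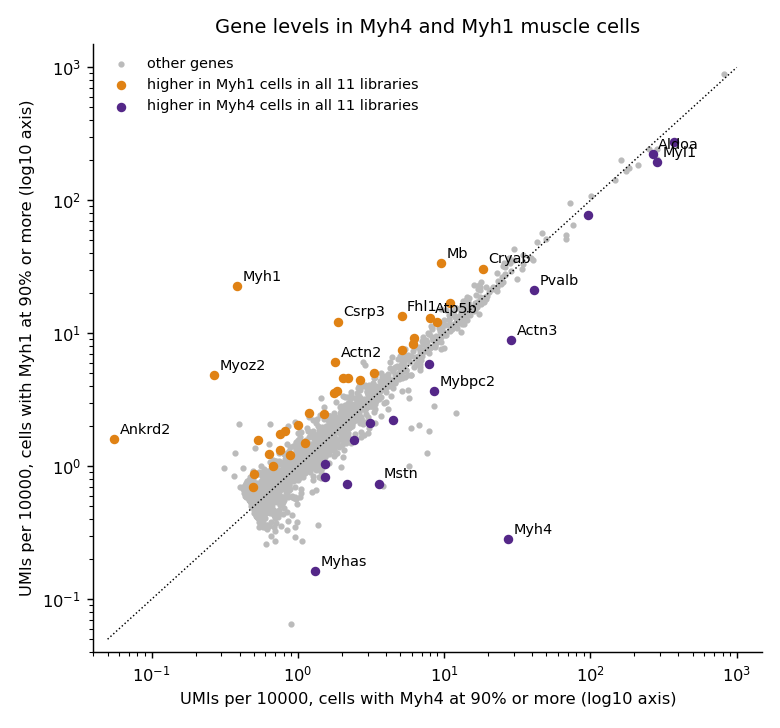
Level of 1712 genes in muscle cells with a Myh4 share of 90% or more (x axis) and in those with a Myh1 share of 90% or more (y axis), in UMIs per 10000 on log10 axes, each point a gene and the dotted line equality. The 33 genes higher in Myh1 cells in all 11 libraries stand above the line, led by Myh1, Ankrd2, Myoz2 and Csrp3, and the 17 higher in Myh4 cells below it. Myh1 and Myh4 defined the cells, so their own positions are no finding.

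Genes of glycogen use and glycolysis were abundant. The 21 listed genes summed to 605 UMIs per 10000 in muscle cells and 11.4 in fibroblasts, and 19 of them were higher in muscle cells in all 17 libraries. Aldoa was at 252 ± 39.9 UMIs per 10000 in muscle cells and 2.33 ± 0.227 in fibroblasts (mean ± SD, n = 17 libraries). Pygm, the muscle glycogen phosphorylase, was at 12.3 ± 2.54 against 0.00535 ± 0.00232. The muscle enolase Eno3 was at 49.5 ± 7.82 and the muscle phosphoglycerate mutase Pgam2 at 38.3 ± 4.24. Hk2, which commits glucose to the cell, was higher in 11 of 17 libraries, and Pgm2 was lower in all 17.

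Phosphagen and adenine nucleotide genes were higher as well. All 6 were higher in muscle cells in all 17 libraries, of which Ckm was used to choose the cells and is no finding. Slc25a4, the heart and muscle ADP/ATP carrier of mitochondria, was at 80.2 against 3.45. Adssl1, the muscle adenylosuccinate synthase, was at 7.64 against 0.00285, and Ak1, adenylate kinase, at 7.41 against 0.185. Ampd1, the muscle AMP deaminase, was at 0.806 against 0.000402.

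Many nuclear genes of the mitochondrion were higher in muscle cells. All 15 listed nuclear subunits of oxidative phosphorylation, without the isoform pairs below, were higher in all 17 libraries, with a sum of 155 UMIs per 10000 against 23.9 and a median log2 ratio of 2.53. Of 16 genes of the TCA cycle, 12 were higher in all 17 libraries, with a median log2 ratio of 1.63. Fatty acid genes were listed apart, and not all of them act in the mitochondrion. Of these 14, 7 were higher in all 17 libraries, not far from the 39.2% of all genes tested, so the count is no finding. The carrier Fabp3 was at 4.07 UMIs per 10000 against 0.00928, while Lpl, lipoprotein lipase, was at 1.44 against 3.76.

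Subunits of cytochrome c oxidase with a muscle isoform showed that isoform. Cox6a2 was at 27.7 ± 3.96 UMIs per 10000 in muscle cells and its counterpart Cox6a1 at 0.140 ± 0.136 (mean ± SD, n = 17 libraries). Fibroblasts had the opposite order, with Cox6a1 at 2.11 ± 0.116 and Cox6a2 at 0.00449 ± 0.00428. Cox8b exceeded Cox8a in muscle cells, at 24.3 ± 3.52 against 1.72 ± 0.346. The third pair stood closer, with Cox7a1 at 11.1 ± 1.76 and Cox7a2 at 8.34 ± 0.915.

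Structural and calcium genes followed the same pattern. Of 14 Z-disc and filament genes, 13 were higher in muscle cells in all 17 libraries, Flnc being the exception. All 13 genes of excitation-contraction coupling were higher in all 17 libraries, with a sum of 34.1 UMIs per 10000 against 0.0786. Trdn, triadin of the calcium release complex, was at 9.75 and Jsrp1, which links that complex to the voltage sensor, at 5.91.

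Genes of muscle stem cells and of specialised fibre zones had few UMIs. Pax7 and Myf5, which mark satellite cells, had 1 UMI each in all muscle cells and Megf10 had 0. Cells with under 10 UMIs of Acta1, Ckm or Tnnt3 could not enter, so this scarcity is partly set by the choice of cells. The factors that remain on in mature fibres were detected, with Mef2c at 7.80 UMIs per 10000, Myf6 at 1.09 and Myod1 at 0.216. Of 10 neuromuscular junction genes, Rapsn, which clusters acetylcholine receptors, had 167 UMIs and no other reached 100. Of 3 myotendinous junction genes, the collagens Col22a1 and Col24a1 had 1 UMI each and the ankyrin repeat gene Ankrd1 had 133, at 0.198 UMIs per 10000 against 0.00201 in fibroblasts. Over libraries Ankrd1 ran from 0 to 1.37, with a median of 0.0183.

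Time of day was then tested on UMIs summed over the muscle cells of each library. ZT2 replicate 3, with 1 muscle cell, was left out, so ZT2 had 2 libraries and each other time 3. The 17 sums held between 80490 and 1026854 UMIs. A 24 h rhythm passed edgeR's quasi-likelihood test (Benjamini-Hochberg adjusted p under 0.05) for 5 of 2797 genes in muscle cells, or 0.179%, and for 1500 of 12516 in fibroblasts of the same libraries, or 12%. At an unadjusted p under 0.05 there were 174 genes in muscle cells. Each mouse gave 1 sum, so mice and not cells were the replicates of this test. The count rested on single libraries in places: it was 2 without ZT2 replicate 1 or without ZT14 replicate 2, and 3 without ZT10 replicate 3 or without ZT22 replicate 2. The 5 genes were Dbp, Mid1ip1, Glul, Tcap and Ppp1r3c.

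Dbp, a PAR bZIP activator driven by the clock, had the firmest rhythm. Its level in muscle cells was 0.358 and 0.436 UMIs per 10000 at ZT2, 2.98, 1.01 and 1.08 at ZT6, and 1.46, 1.61 and 1.28 at ZT10. It was 0.836, 0.886 and 0.978 at ZT14, 0.307, 0.362 and 0.192 at ZT18, and 0.163, 0.238 and 0.228 at ZT22. Every library of ZT6, ZT10 and ZT14 stood above every library of the other times. The fitted log2 amplitude was 1.59 ± 0.14 (jackknife SE, n = 17 libraries) with a peak at ZT8.95 ± 0.521 h (adjusted p = 3.79e-05, edgeR), and it passed under all 29 alternatives.

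Mid1ip1, which promotes fatty acid synthesis by activating acetyl-CoA carboxylase, peaked at dusk. It was at 0.199 and 0.262 UMIs per 10000 at ZT2, 0.497, 0.345 and 0.421 at ZT6, and 0.656, 0.841 and 0.751 at ZT10. It was at 0.637, 0.847 and 1.33 at ZT14, 0.644, 0.517 and 0.525 at ZT18, and 0.245, 0.119 and 0.171 at ZT22. The libraries of ZT2 and ZT22 stood below all others. The log2 amplitude was 1.20 ± 0.16 with a peak at ZT12.5 ± 0.337 h (adjusted p = 0.00144, edgeR).

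Glul, glutamine synthetase, peaked early in the dark. It was at 0.597 and 0.786 UMIs per 10000 at ZT2, 0.994, 0.740 and 0.737 at ZT6, and 0.765, 2.13 and 1.12 at ZT10. It was at 2.23, 2.00 and 1.78 at ZT14, 1.53, 1.03 and 1.45 at ZT18, and 0.979, 0.874 and 1.05 at ZT22. The 3 ZT14 libraries and ZT10 replicate 2 stood above the rest. The log2 amplitude was 0.76 ± 0.09 with a peak at ZT14.2 ± 0.733 h (adjusted p = 0.0162, edgeR). The call was lost without ZT2 replicate 1, ZT14 replicate 1 or ZT14 replicate 2, with adjusted p = 0.0818, 0.0561 and 0.0693 (edgeR).

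Tcap, the titin cap of the Z-disc and a known clock target in muscle, was the most abundant of the 5. It was at 21.0 and 28.1 UMIs per 10000 at ZT2, 30.8, 33.96 and 35.2 at ZT6, and 34.3, 40.6 and 47.4 at ZT10. It was at 33.8, 40.1 and 47.7 at ZT14, 39.1, 28.0 and 26.9 at ZT18, and 17.2, 21.5 and 27.3 at ZT22. All libraries of ZT6, ZT10 and ZT14 stood above all of ZT2 and ZT22. The log2 amplitude was 0.50 ± 0.10 with a peak at ZT11.3 ± 0.617 h (adjusted p = 0.0238, edgeR). It was lost without ZT2 replicate 1, ZT10 replicate 3, ZT14 replicate 2 or ZT22 replicate 2, with adjusted p = 0.0818, 0.109, 0.0613 and 0.108 (edgeR).

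Ppp1r3c, a subunit that targets protein phosphatase 1 to glycogen, peaked late in the dark and was the least firm. It was at 1.23 and 1.31 UMIs per 10000 at ZT2, 0.497, 0.419 and 0.737 at ZT6, and 0.219, 0.841 and 0.385 at ZT10. It was at 0.969, 1.10 and 1.51 at ZT14, 1.96, 1.65 and 1.12 at ZT18, and 1.22, 2.10 and 1.51 at ZT22. The libraries of ZT6 and ZT10 stood below all others. The log2 amplitude was 0.86 ± 0.17 with a peak at ZT20.2 ± 0.649 h (adjusted p = 0.0470, edgeR), and with the replicate number as a block the adjusted p was 0.0616. It passed in only 10 of 29 alternatives, and in 4 of the 17 that left out 1 library each, with adjusted p from 1.61e-05 to 0.166.

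**Figure D4:**
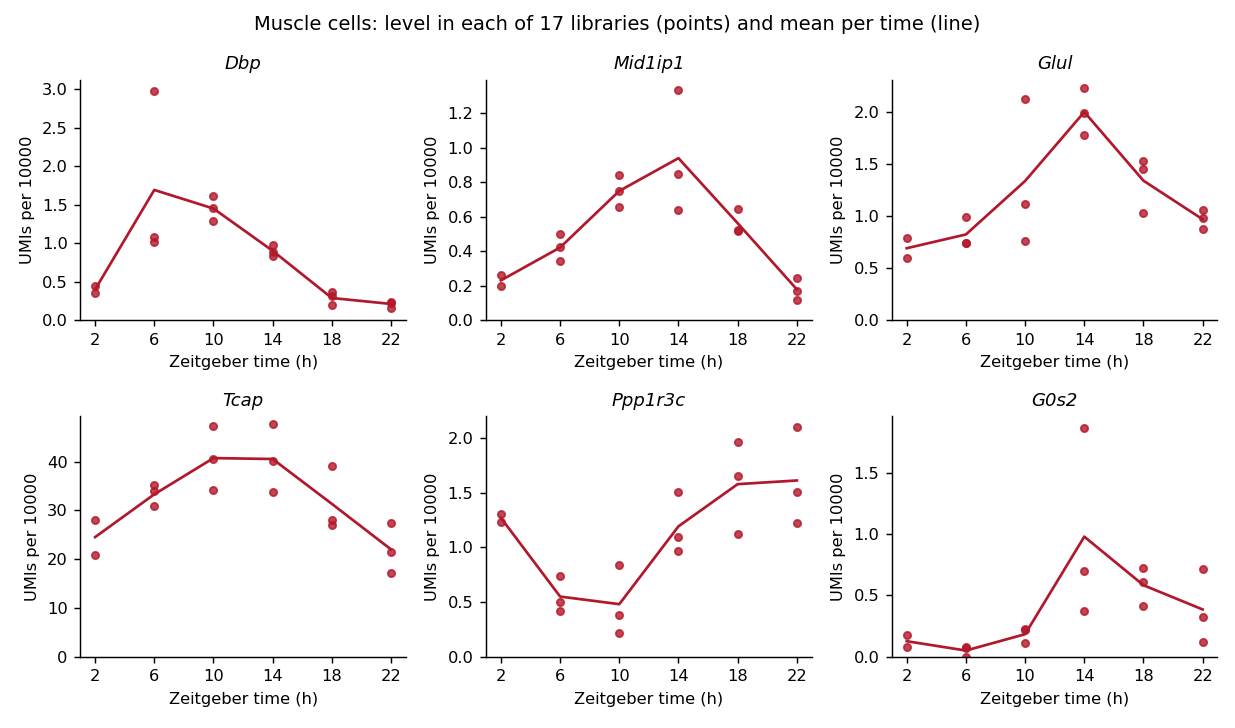
Level in muscle cells (y axis, UMIs per 10000) by zeitgeber time (x axis, h) for the 5 genes called rhythmic and for G0s2, the next by p, each point 1 of 17 libraries and the line the mean per time. Dbp is highest in the libraries of ZT6 to ZT14, Mid1ip1, Glul and Tcap around ZT10 and ZT14, and Ppp1r3c lowest at ZT6 and ZT10.

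The next gene was G0s2, an inhibitor of adipose triglyceride lipase, with a log2 amplitude of 1.70 ± 0.34 and a peak at ZT16.6 (adjusted p = 0.0552, edgeR). Without the 14 cells that met the fibroblast rule, 9 of 2636 genes were called, or 0.341%. G0s2 was one of them (adjusted p = 0.0041), as were all 5 above, Ankrd9 and Mcl1. DESeq2 called 14.

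Of the 5 genes called, Dbp, Tcap and Ppp1r3c were in the lists, and Mid1ip1 and Glul were not. Of 20 genes listed as clock-controlled in skeletal muscle from general knowledge, 13 could be tested, 7 had an unadjusted p under 0.05, against 174 of all 2797 genes or 6.22%, and 2 were called, Tcap and Ppp1r3c. Their median log2 amplitude was 0.51, against 0.18 for all genes tested. This list was drawn up with earlier results of these data known, so its counts and amplitude are no independent support for it. Pdk4 and Fbxo32, which spare glucose and degrade protein, had log2 amplitudes of 0.54 and 0.53 with adjusted p = 0.790 each (edgeR). Of 20 glycogen and glycolysis genes tested, 3 had an unadjusted p under 0.05 and none was called, with a median log2 amplitude of 0.18. None of 15 oxidative phosphorylation, 16 TCA cycle and 13 fast fibre genes was called either, and with 0.179% of all genes called, a count of 0 says nothing about these groups. The 4 haemoglobin genes tested had unadjusted p from 0.0260 to 0.0392 and none was called. Their highest libraries were ZT10 replicate 1, at 72.5 UMIs of Hbb-bs per 10000, and ZT6 replicate 2, at 52.9.

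Of 19 core clock genes, 7 were abundant enough to be tested in muscle cells, and Dbp alone was called. In fibroblasts of the same libraries, 18 could be tested and 16 were called. The median log2 amplitude was 0.24 over the 7 in muscle cells and 1.61 over the 18 in fibroblasts. The muscle cells gave fewer UMIs, so a difference in calls alone does not compare the 2 cell types, and the difference in rhythm was tested in 1 model of both, by the interaction of cell type and time, each library being a block. Of 9658 genes, 2 passed, or 0.0207%: Nr1d1 and Mid1ip1. In simulated counts this test found few of the differences put in. It found 1 of 58 genes at a log2 amplitude of 0.5, 3 of 59 at 1 and 16 of 56 at 1.5. The low count therefore does not show that the rhythms of the other genes were alike. Only 2797 genes could be tested in muscle cells alone, so most of the 9658 entered through their counts in fibroblasts. With the replicate number as a further block, 4 passed.

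Nr1d1, the REV-ERB alpha repressor, was not called in muscle cells (adjusted p = 0.811, edgeR). It was at 0.358 and 0.349 UMIs per 10000 at ZT2, 0.621, 0.271 and 0.474 at ZT6, and 0.291, 0.505 and 0.110 at ZT10. It was at 0.504, 0.156 and 0 at ZT14, 0.153, 0.155 and 0.121 at ZT18, and 0.245, 0.278 and 0.142 at ZT22. In fibroblasts it ran from 1.23, 1.23 and 1.68 at ZT6 to 0.0208, 0.0162 and 0.0364 at ZT18. In each library of ZT6, ZT10 and ZT14 the fibroblasts stood above the muscle cells, and in each of ZT18 and ZT22 below them. The log2 amplitude was 0.66 ± 0.31 in muscle cells and 3.03 ± 0.28 in fibroblasts, and the amplitude of the difference was 2.46 ± 0.40 (adjusted p = 0.0126, edgeR). With ZT14 replicate 2 left out, Nr1d1 was the 1 gene that passed, and without ZT6 replicate 3, ZT14 replicate 1 or ZT18 replicate 1 the count was 5, without ZT18 replicate 3 it was 6.

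Mid1ip1 had the opposite order. Its log2 amplitude in fibroblasts was 0.13 ± 0.14, with levels between 0.163 and 0.487 UMIs per 10000 over the 17 libraries. The amplitude of the difference was 1.45 ± 0.22 (adjusted p = 0.0126, edgeR). Without ZT14 replicate 2 or without ZT22 replicate 3 the call was lost, with adjusted p = 0.0683 and 0.0559 (edgeR).

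Nr1d2, Tef and Bhlhe41 were called in fibroblasts and not in muscle cells. Nr1d2, the REV-ERB beta repressor, had a log2 amplitude of 0.24 ± 0.28 in muscle cells and 1.74 ± 0.17 in fibroblasts. Tef, a PAR bZIP activator like Dbp, had 0.09 ± 0.10 against 1.30 ± 0.13. Bhlhe41, a repressor that binds E-boxes, had 0.26 ± 0.15 against 1.59 ± 0.12. The tests of the difference missed the threshold, with adjusted p = 0.0587 for Nr1d2 and 0.0571 for Tef and Bhlhe41 (edgeR). Without the 14 cells that met the fibroblast rule, 70 of 9647 genes passed, or 0.726%, 8 of them among 17 core clock genes. These 8 were Nr1d1, Nr1d2, Tef, Bhlhe41, Dbp, Cry1, Nfil3 and Hlf. The smallest p of the 70 was that of Tpm3, with a log2 amplitude of 9.07, and 157 of its 204 UMIs lay in the 1 slow cell of ZT10 replicate 1. The red cell genes Hba-a2, Hbb-bs, Hba-a1 and Hbb-bt passed as well, with amplitudes of 1.49, 1.26, 1.25 and 1.18 and adjusted p from 5.51e-14 to 7.60e-08 (edgeR), and 5 muscle cells held 75.5% of the haemoglobin UMIs. What part single cells and red cell RNA had in the count of 70 was not tested. Dbp, rhythmic in both, then had an amplitude of the difference of 1.25 (adjusted p = 5.49e-07, edgeR), from 1.51 in muscle cells. The amplitude of the Nr1d1 difference was 2.46 with the 14 cells and 2.42 without them. Its adjusted p went from 0.0126 to 2.21e-17 (edgeR), so the p-values of the fit without them are not read as spread between mice.

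**Figure D5:**
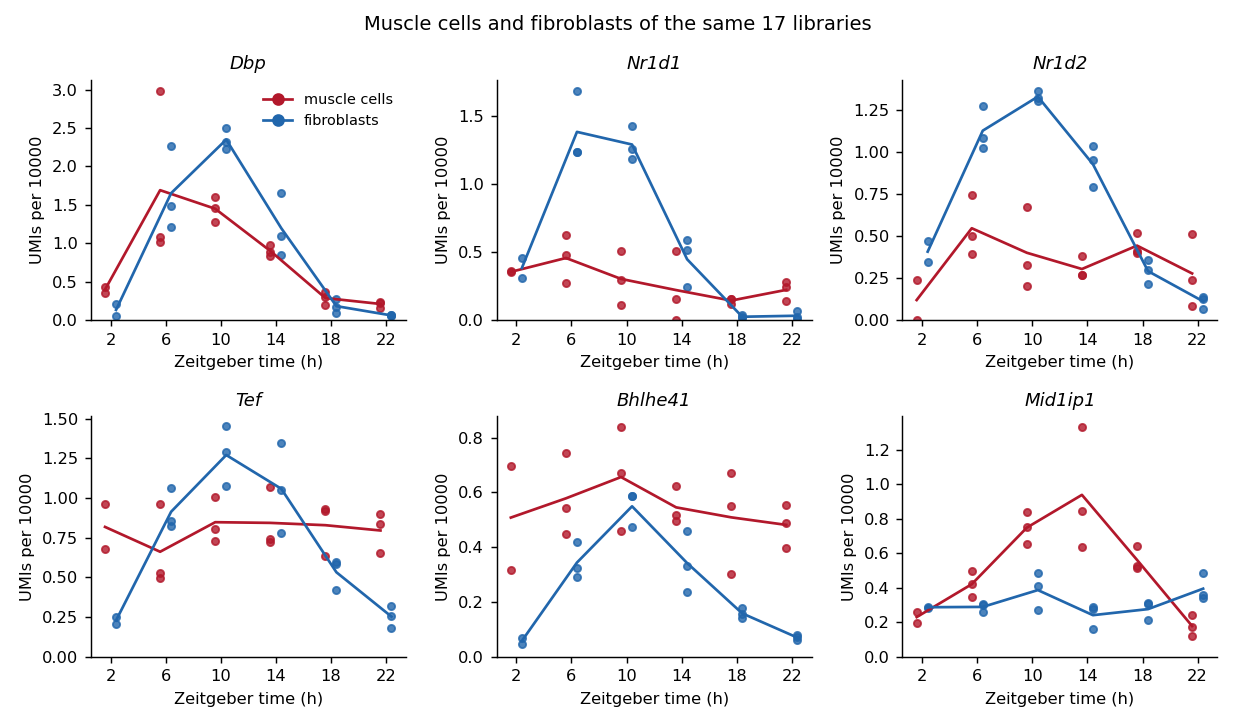
Level (y axis, UMIs per 10000) by zeitgeber time (x axis, h) in muscle cells (red) and fibroblasts (blue) of the same 17 libraries for 5 clock genes and Mid1ip1, each point a library and the line the mean per time. Nr1d1, Nr1d2, Tef and Bhlhe41 were called rhythmic in fibroblasts, Dbp in both cell types and Mid1ip1 in muscle cells.

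Levels of the clock genes, pooled over all cells of each type, differed as well. Bhlhe41 was at 0.503 UMIs per 10000 in muscle cells against 0.240 in fibroblasts and higher in 16 of 17. Clock, Per1, Per3, Cry2 and Rora were lower in muscle cells in all 17. Rora was at 0.627 against 1.52 and Per3 at 0.0669 against 0.554.

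For the scarce clock genes, cells were pooled per zeitgeber time (exact Poisson 95% intervals, for counting error only). Arntl, the partner of Clock, had 3, 3, 3, 4, 27 and 11 UMIs from ZT2 to ZT22. Its pooled level was 0.0221 UMIs per 10000 at ZT10 (0.00456 to 0.0647) and 0.179 at ZT18 (0.118 to 0.260). Its levels by library overlapped, however, at 0.0729, 0.0187 and 0 at ZT10 and 0.215, 0.0517 and 0.192 at ZT18. Of the 27 UMIs, 19 came from ZT18 replicate 3, which also held 5 of the 14 cells that met the fibroblast rule. The part of those cells in the Arntl UMIs was not tested. Nfil3, a repressor of D-box genes, was at 0.0577 at ZT6 (0.0188 to 0.135) and at 0.276 at ZT22 (0.168 to 0.426), and by library at 0, 0.0493 and 0.0790 at ZT6 and 0.571, 0.318 and 0.142 at ZT22. The libraries of these 2 times did not overlap, a pair picked after seeing the values. The pooled fibroblast levels of Nfil3 at those times were 0.0699 and 0.468. For Per3 the 6 intervals overlapped, with 45 UMIs in all, too few for the test. A 24 h cosine fitted to the levels gave a peak at ZT21.2 ± 0.899 h for Arntl in muscle cells and at ZT22.8 ± 0.420 h in fibroblasts. Cry1, a repressor of Clock and Arntl, had a fitted peak at ZT10.3 ± 2.45 h in muscle cells and at ZT19.5 ± 0.463 h in fibroblasts. Its fitted amplitude in muscle cells was 0.0265 ± 0.0191 UMIs per 10000, so the peak time there is poorly set. The difference in peak time was not tested. The pooled level of Cry1 in muscle cells was highest at ZT10, at 0.103 (0.0565 to 0.173) from 14 UMIs. At ZT22 it was 0.0276 (0.00334 to 0.0996) from 2 UMIs, where fibroblasts were highest at 0.291. By library Cry1 in muscle cells was at 0.146, 0.150 and 0.0366 at ZT10 and at 0.0816, 0.0397 and 0 at ZT22, ranges that overlap.

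Clock factors act on short sites in promoters. Shown are 3 promoters with the E-box CACGTG, to which Clock and Arntl bind, because the calls of their genes in muscle cells differed. Ppp1r3c was called rhythmic, a call that held in only 10 of 29 alternatives. Tef and Bhlhe41 were not called there and swung in fibroblasts, and the difference between the 3 genes was not tested. Each stretch runs from 250 bases before to 50 after the start of transcription, from RefSeq on GRCm38.p6, 5' to 3' on the gene's strand, with E-boxes in capitals. Ppp1r3c lies at chr19:36736555-36736854 on the minus strand, with the E-box 104 bases upstream of the start. The first promoter of Tef lies at chr15:81802423-81802722 on the plus strand, with the E-box 127 bases upstream. Bhlhe41 lies at chr6:145865371-145865670 on the minus strand, with the E-box 153 bases upstream.
Ppp1r3c: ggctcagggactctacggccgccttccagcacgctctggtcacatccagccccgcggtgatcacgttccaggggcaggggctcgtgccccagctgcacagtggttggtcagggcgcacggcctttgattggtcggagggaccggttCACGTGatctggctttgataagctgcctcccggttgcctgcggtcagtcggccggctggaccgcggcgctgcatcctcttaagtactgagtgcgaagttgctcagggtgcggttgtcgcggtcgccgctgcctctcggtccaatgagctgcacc
Tef: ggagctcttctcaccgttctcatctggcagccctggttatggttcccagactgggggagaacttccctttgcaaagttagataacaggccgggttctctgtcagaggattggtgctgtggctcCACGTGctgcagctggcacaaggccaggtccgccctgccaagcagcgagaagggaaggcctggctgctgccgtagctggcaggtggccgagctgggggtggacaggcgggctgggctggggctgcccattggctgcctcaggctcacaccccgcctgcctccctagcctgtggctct
Bhlhe41: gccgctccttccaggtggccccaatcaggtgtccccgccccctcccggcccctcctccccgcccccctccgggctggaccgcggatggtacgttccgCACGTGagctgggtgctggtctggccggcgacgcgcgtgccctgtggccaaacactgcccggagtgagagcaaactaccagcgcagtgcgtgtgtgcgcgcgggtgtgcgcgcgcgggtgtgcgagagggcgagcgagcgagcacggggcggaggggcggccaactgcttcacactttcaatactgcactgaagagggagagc

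A second promoter of Tef held an E-box too. Of the 5 genes called rhythmic in muscle cells, 4 were in the table and 1 held CACGTG, against 7.15% of all 32851 promoters. Of the 19 core clock genes, 16 were in the table and 5 held it: Tef, Bhlhe41, Per1, Cry1 and Ciart. The D-box TTATGTAA occurred in the promoter of Per3, against 0.938% of all promoters. The half-site AGGTCA of REV-ERB receptors occurred in Glul, 57 bases upstream, in Nr1d2, 77 bases upstream, and in 4 other core clock genes, against 16.3%. Both strands were searched, and no motif overlaps another in the 3 stretches shown. The promoters of Dbp, Mid1ip1 and Nr1d1 held none of the 3 motifs in this window.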

How the data were processed

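The authors aligned 10x Chromium 3' reads to the mouse genome and deposited the UMI counts of each library as a matrix of whole numbers. The submitters' processing notes name Cell Ranger 3.1.0 and mm10. Nothing had been normalised. The study's data integration was not repeated, and no doublet caller was run. Cells, lists and the named genes were chosen with earlier results of these data known. The named genes were all listed genes, the 20 most abundant in muscle cells, the 10 with the highest ratio to fibroblasts among those with at least 100 UMIs, and the genes leading each test. Any other named gene was chosen after its values were seen. A few genes that the rule names are not reported here.

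Deposited libraries held 318 to 2322 barcodes and 4850221 to 40827442 UMIs. Levels are UMIs per 10000. Counts were summed per library and cell type, in libraries with at least 10 muscle cells, and a 24 h cosine and sine were tested with edgeR 4.0.16 (TMM, filterByExpr, glmQLFit) in R 4.3.3. The difference in rhythm had the library as a block. DESeq2 1.42.0 was an alternative. Shares were tested in Python 3.11.15 with scipy 1.17.1 and numpy 2.4.6. Scripts were tested on simulated data. Replicate numbers mark collection cycles per the labels. Deviations of same-numbered libraries correlated with a median r of 0.205 over 40 pairs, against -0.130 over 80 other pairs. Intervals cover counting error only.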

Additional observations from a re-analysis of the deposited data

Results flagged for a closer look

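The 24 h rhythm of Nr1d1 differed between muscle cells and fibroblasts, with a log2 amplitude of the difference of 2.46 ± 0.40 (adjusted p = 0.0126, edgeR, n = 17 libraries). That of Mid1ip1 differed as well, by 1.45 ± 0.22 (adjusted p = 0.0126, edgeR).

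Outside the limits on genes and mitochondrial UMIs, 829 barcodes had at least 10 UMIs each of Acta1, Ckm and Tnnt3 and no UMI of Ptprc, or 53.0% of all barcodes that met that rule. They had a median of 1433 UMIs and 526 genes. No comparison above uses them, apart from the alternatives without limits.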

How the results depend on the processing

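Dbp passed in all 29 alternatives run for it, Mid1ip1 in 27 of 28, Glul in 24 of 29, Tcap in 22 of 29 and Ppp1r3c in 10 of 29, and the difference in rhythm of Nr1d1 in 28 and of Mid1ip1 in 25 of 29. The 5 genes called in muscle cells became 171 with no filter on low counts, 14 with DESeq2, 9 without the cells that met the fibroblast rule, 1 in libraries with at least 20 muscle cells and 1 after thinning to 5000 UMIs. Leaving out 1 library gave 2 to 7. In fibroblasts the 1500 became 340 and 508 under those last settings, and 1115 to 1654 with 1 library left out. The 2 genes that differed became 24 with no filter, 13 with DESeq2, 9 with every library, 0 with at least 20 muscle cells (382 at an unadjusted p under 0.05, edgeR), 31 at 30 UMIs per rule gene, 70 without the cells that met the fibroblast rule, 1 when thinned, 10 with no limits on genes and mitochondrial UMIs, and 1 to 6 with 1 library left out. Without muscle cells of at least 20 collagen UMIs, added after seeing the data, 9 genes were called in muscle cells and 67 differed. With the replicate number as a block, 4 genes were called in muscle cells, 1564 in fibroblasts and 4 differed, and of the calls named above only that of Ppp1r3c was lost. A 24 h cosine explained 10.5% to 31.2% of the muscle share and 5.05% to 19.7% of the Myh4 share with 1 library left out, 25.03% of the muscle share of deposited barcodes without limits, and 27.7% of the Myh4 share in libraries with at least 20 muscle cells, none with a permutation p under 0.05. Muscle cells numbered 1565 with no limits and 1549 with the mitochondrial limit alone. By the median over cells, where a gene at 0 in both cell types counted as not higher, 93 listed genes were higher in muscle cells. The cause of these changes was not tested. The muscle sums were shallower than those of fibroblasts, which limits the scarce clock genes.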

Other observations

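ZT2 replicate 3, which entered no test of rhythm, held 1 muscle cell with 10320 UMIs and 3 barcodes that met the rule on Acta1, Ckm, Tnnt3 and Ptprc among 2278.

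Of 11 glucocorticoid targets, 7 were lower in muscle cells than in fibroblasts in all 17 libraries. Metallothionein Mt1, which binds zinc and copper, was at 3.86 UMIs per 10000 against 15.4. In muscle cells it was highest in ZT14 replicate 1, at 10.7, and lowest in ZT22 replicate 1, at 1.14, and its 24 h rhythm missed the threshold (adjusted p = 0.0848, edgeR).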
